A study of Mus musculus with 16 samples.

Results

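Fatty acid synthesis genes were followed in mouse liver through 10 genes chosen by name: Srebf1, Thrsp, Acly, Me1, Acaca, Fasn, Elovl6, Scd1, Gpam and Dgat2. Every probe set whose annotated symbol was one of these was taken, which gave 20 probe sets of the 22626 tested. All 20 carry a single symbol, and 0 probe sets list one of these genes beside another. Fasn, Acaca and Srebf1 have 1 probe set each, Acly has 5, and the other genes have 2 each.

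The arrays were made to find liver genes of the integrated stress response, the change in translation and transcription that follows phosphorylation of the translation factor eIF2α. All 16 arrays carry liver RNA of male FvB/n mice, in 2 experiments of 8 arrays. In the first, mice of a high-expressing TTR::Fv2E-PERK line were AP20187-treated (4 arrays) or untreated (4 arrays). Both groups carry the transgene, the kinase part of PERK joined to drug-binding domains under the transthyretin promoter, and AP20187 brings its molecules together. In the second, the groups were HFD Alb::GC, HFD wildtype, LFD Alb::GC and LFD wildtype, with 2 arrays each. HFD is a high fat diet and LFD a low fat diet. Alb::GC mice carry, under the albumin promoter, an active fragment of GADD34, which promotes removal of the phosphate from eIF2α. The labels give no ages, drug doses or feeding times, and do not say that each array is a separate animal. The p-values therefore rest on differences between samples of a group that may be only technical. For LFD wildtype replicate 2 the source label lists wildtype together with Alb::GC, and for AP20187-treated replicate 4 it is a single letter. Both were grouped by their descriptions. Atf4 knockout mice, which the design text mentions, were not analysed here.

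Liver makes fatty acids from citrate that leaves the mitochondria. ATP-citrate lyase (Acly) splits it into acetyl-CoA, acetyl-CoA carboxylase (Acaca) makes malonyl-CoA, and fatty acid synthase (Fasn) builds palmitate with NADPH that comes in part from malic enzyme (Me1). Elovl6 lengthens the product, Scd1 puts in a double bond, and Gpam and Dgat2 catalyse the first and last steps that place fatty acids in triglycerides. The transcription factor made from Srebf1 drives most of these genes in response to insulin, and Thrsp (Spot 14) is a lipogenic protein that responds to thyroid hormone and carbohydrate.

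Each value is a ratio per probe set and array, around 1, whose denominator no source used here gives. Such ratios hold no absolute level, so genes are not ranked by abundance and the tissue label cannot be checked by the level of liver markers. Each experiment has its own scale and comparisons stay within it. Differences are log2 differences of the ratio plus 0.05, with the standard error from limma, and a gene "rose" or "fell" where the Benjamini-Hochberg adjusted p over all 22626 probe sets was below 0.05. In RNA of whole liver, fewer cells of a type and less RNA per cell cannot be told apart.

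The regions just before the start of Fasn, Acly and Thrsp are printed because these genes had the largest changes with AP20187 and differ in direction. Each is the 250 bases upstream of the start, from RefSeq on GRCm38.p6, 5′ to 3′ on the gene's minus strand: chr11:120824548-120824797 for Fasn, chr11:100528001-100528250 for Acly and chr7:97417551-97417800 for Thrsp. Capitals mark CCAAT on either strand, the core of the box bound by NF-Y.
Fasn: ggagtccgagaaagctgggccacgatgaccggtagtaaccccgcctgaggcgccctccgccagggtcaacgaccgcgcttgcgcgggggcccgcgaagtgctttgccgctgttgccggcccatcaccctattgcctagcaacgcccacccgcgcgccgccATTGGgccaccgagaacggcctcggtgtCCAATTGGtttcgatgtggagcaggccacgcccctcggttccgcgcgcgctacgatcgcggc
Acly: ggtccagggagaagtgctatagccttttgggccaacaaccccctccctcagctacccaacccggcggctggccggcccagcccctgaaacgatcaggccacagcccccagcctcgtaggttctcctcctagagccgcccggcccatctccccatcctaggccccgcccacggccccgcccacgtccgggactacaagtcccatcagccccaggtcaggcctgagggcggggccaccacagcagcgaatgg
Thrsp: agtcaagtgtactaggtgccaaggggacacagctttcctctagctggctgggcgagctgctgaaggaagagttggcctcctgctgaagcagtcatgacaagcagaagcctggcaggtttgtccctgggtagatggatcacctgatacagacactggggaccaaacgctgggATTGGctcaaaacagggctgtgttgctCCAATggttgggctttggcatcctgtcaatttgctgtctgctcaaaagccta
CCAAT lies in 3 places before Fasn, 2 of which overlap on opposite strands within CCAATTGG. It lies in 2 places before Thrsp and in 0 places before Acly. Over all 32851 windows of this kind it is found in 33.8%. Of the 10 genes, 8 have an entry, with 12 windows between them, and CCAAT is in 6 of these 12. The E-box CANNTG was in 6 of the 12 windows and in 66.2% of all windows, and the GC box GGGCGG in 5 of 12 and in 32.7%. The palindromic E-box CACGTG, which CANNTG includes, was in 6.02% of all windows. TCACNCCAC, a form of the sterol regulatory element bound by SREBP, was in 1.05%. The composite site TGATGNAAT, of the kind bound by C/EBP-ATF4 pairs, was in 0.816%. None of these 3 was in any of the 12 windows. Both strands were searched, and a match is a description of the letters only.

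With AP20187, genes of fatty acid synthesis fell and 2 others of the group rose. Fasn, Acly, Acaca, Scd1 and Srebf1 were lower in AP20187-treated liver, while Thrsp and Dgat2 were higher. Of the 20 probe sets 12 passed, 4 higher and 8 lower, in 7 genes. Over all probe sets tested 34.1% passed, 13.7% higher and 20.4% lower. The median difference was -0.29 over the 20 probe sets and -0.13 over all probe sets. All 4 treated arrays lay above all untreated arrays in 4 probe sets (14.5% of all) and below them in 8 (20.5% of all). Me1, Elovl6 and Gpam had no probe set past the threshold.

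**Figure D1:**
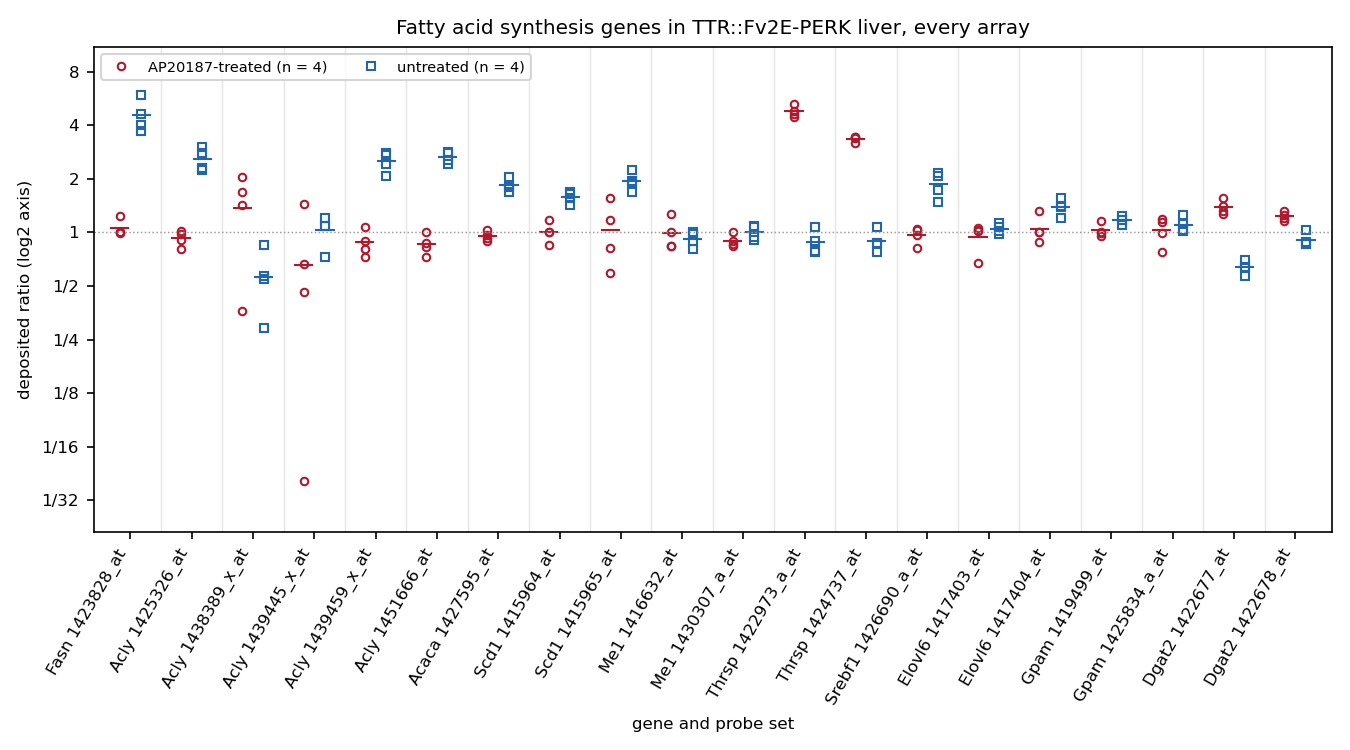
Deposited ratio of each of the 20 probe sets on a log2 axis, with 1 point per array for AP20187-treated (circles) and untreated (squares) TTR::Fv2E-PERK liver, and short lines at the group means (n = 4 each). Fasn, 3 of the 5 Acly probe sets, Acaca, Scd1 and Srebf1 lie lower in the treated arrays, and both probe sets of Thrsp and of Dgat2 lie higher.

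Among the regulators, Srebf1 (1426690_a_at) had ratios of 1.05, 0.97, 0.82 and 1.03 in AP20187-treated liver, against 2.16, 1.74, 1.49 and 2.07 in untreated liver. It fell by 0.90 on the log2 scale (SE 0.14, adjusted p = 0.00163), and the groups did not overlap. Thrsp moved the other way. Its probe set 1422973_a_at had 4.83, 4.47, 4.65 and 5.29 in AP20187-treated liver, against 0.89, 0.78, 0.79 and 1.07 in untreated liver. This is a rise of 2.39 ± 0.16 (log2 ± SE, adjusted p = 9.34e-05), or 5.24-fold, the largest difference among the 20 in this comparison. The second Thrsp probe set, 1424737_at, had 3.45, 3.18, 3.40 and 3.43, against 0.87, 0.78, 0.87 and 1.07 in untreated liver. It rose by 1.86 ± 0.12 (adjusted p = 8.51e-05), so both probe sets gave the same direction in every array.

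For substrate supply, 3 Acly probe sets fell and 2 did not pass. Probe set 1451666_at had 0.83, 0.87, 0.73 and 1.01 with AP20187, against 2.79, 2.42, 2.55 and 2.82 untreated. It fell by 1.57 on the log2 scale (SE 0.11, adjusted p = 9.97e-05). Probe set 1425326_at, annotated with the same accession, averaged 0.930 ± 0.0920 with AP20187 and 2.59 ± 0.379 untreated (SD, n = 4 each) and fell by 1.42 (SE 0.13). Probe set 1439459_x_at averaged 0.878 ± 0.146 with AP20187 and 2.50 ± 0.330 untreated and fell by 1.47 (SE 0.14). No treated array of these 3 overlapped an untreated one. The other 2 probe sets do not repeat this pattern. Probe set 1438389_x_at had 0.36, 1.42, 1.68 and 2.04 with AP20187 and 0.57, 0.85, 0.29 and 0.55 untreated, a difference of 1.07 ± 0.53 with the opposite sign (adjusted p = 0.17). Without AP20187-treated replicate 1 this difference was 1.59 and passed (adjusted p = 0.0113, range 0.0113 to 0.34 over 14 alternatives). Probe set 1439445_x_at had 0.66, 0.04, 0.46 and 1.45 with AP20187 and 1.08, 1.09, 1.21 and 0.73 untreated, a difference of -1.17 ± 0.77 (adjusted p = 0.291). Their spread between arrays of a group was at percentiles 84.5 and 95.8 of all probe sets, against 20.6 to 37.7 for the 3 that fell. Both Me1 probe sets overlapped between the groups, with differences of 0.08 ± 0.15 and -0.15 ± 0.11.

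The enzymes that build the chain fell. Acaca (1427595_at) had 0.97, 0.93, 0.89 and 1.03 in AP20187-treated liver, against 1.80, 2.04, 1.82 and 1.69 in untreated liver, and fell by 0.91 on the log2 scale (SE 0.09, adjusted p = 0.000211). Fasn (1423828_at) had 1.0, 1.0, 1.23 and 0.99, against 5.91, 4.0, 3.71 and 4.60 untreated. It fell by 2.04 (SE 0.21, adjusted p = 0.000261), to 0.243 of the untreated value, and the highest treated array lay well below the lowest untreated one. This was the largest fall among the 20. It passed in each of 14 alternative settings, with log2 differences from -2.13 to -1.91.

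Of the enzymes that modify the chain, Scd1 passed and Elovl6 did not, and all their probe sets had negative differences. These genes were not compared with each other. Scd1 fell by both of its probe sets. Probe set 1415964_at had 1.18, 0.85, 1.01 and 1.0 with AP20187, against 1.69, 1.55, 1.43 and 1.64 untreated, and fell by 0.62 (SE 0.11, adjusted p = 0.00313). Probe set 1415965_at had 1.55, 0.82, 0.59 and 1.18, against 2.25, 1.95, 1.69 and 1.90 untreated, and fell by 0.96 (SE 0.27, adjusted p = 0.0249). This second call was lost without untreated replicate 1, 2 or 4 or AP20187-treated replicate 2, and under quantile normalization, with adjusted p-values of 0.00808 to 0.097 over 14 alternatives. Elovl6 did not pass. Probe set 1417404_at had 0.88, 1.0, 1.32 and 1.0 with AP20187 and 1.39, 1.41, 1.21 and 1.56 untreated, a difference of -0.40 ± 0.13 (adjusted p = 0.0504). It passed without untreated replicate 3 (adjusted p = 0.0471) or without AP20187-treated replicate 3 (0.0101), in a range up to 0.314. Probe set 1417403_at differed by -0.16 ± 0.15, with 1 treated array at 0.67 and the others between 1.02 and 1.06.

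In triglyceride assembly, Dgat2, the acyltransferase of the last step, rose. Probe set 1422677_at had 1.41, 1.27, 1.55 and 1.32 with AP20187, against 0.64, 0.57, 0.64 and 0.70 untreated, a rise of 1.06 ± 0.11 (adjusted p = 0.000268). Probe set 1422678_at had 1.26, 1.16, 1.32 and 1.21, against 0.86, 0.88, 0.86 and 1.03 untreated, and rose by 0.43 ± 0.09 (adjusted p = 0.00745). Neither probe set overlapped between the groups. Gpam, the acyltransferase of the first step, overlapped in both probe sets, with differences of -0.18 ± 0.09 (adjusted p = 0.155) and -0.12 ± 0.14 (0.591).

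**Figure D2:**
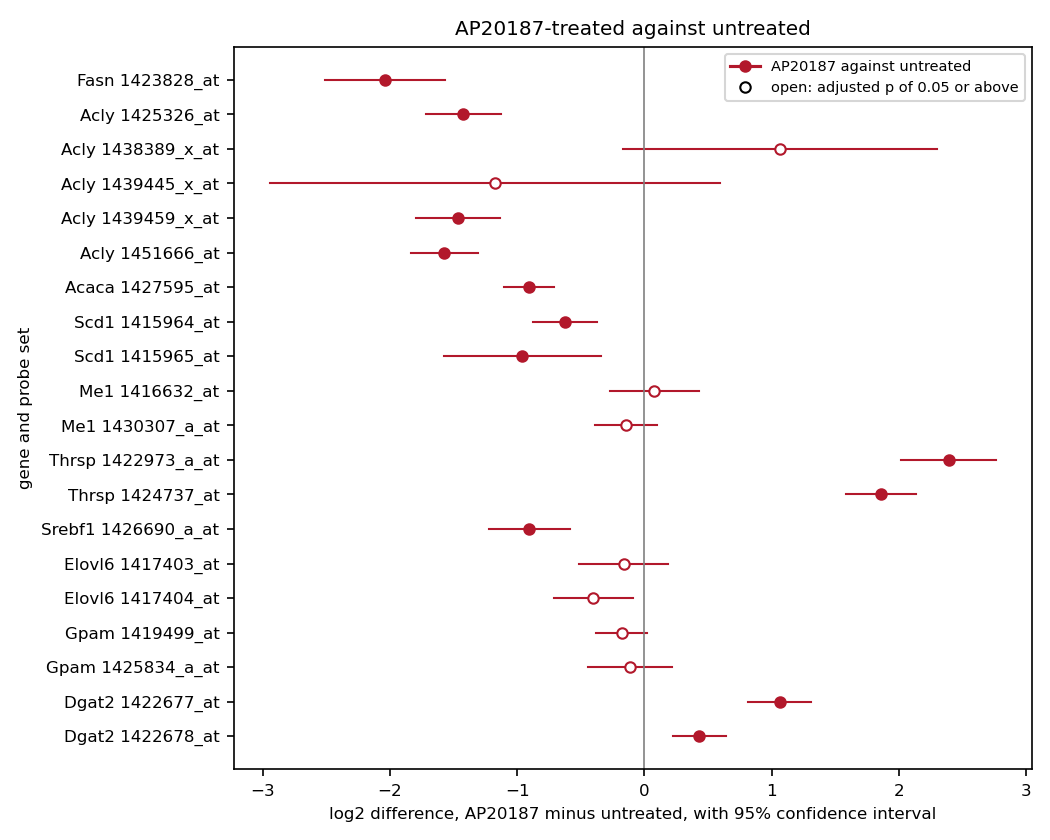
Log2 difference of each probe set, AP20187-treated minus untreated, with its 95% confidence interval from limma. Filled points passed an adjusted p of 0.05. Fasn lies lowest at -2.04 and Thrsp highest at 2.39, and the intervals of the Acly probe sets 1438389_x_at and 1439445_x_at cross 0.

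Markers of cell types also moved with AP20187, and their part in these results was not tested. Of 9 measured hepatocyte markers of 10 listed, 6 fell and 1 rose, and their summed ratio was 8.43 to 9.16 in treated arrays, against 11.9 to 13.7 in untreated arrays. The macrophage list (7 genes, 4 fell) summed to 5.16 to 7.15, against 8.42 to 8.99 untreated. The stellate and fibroblast list (6 genes, 3 fell) summed to 5.20 to 6.10, against 10.3 to 12.0 untreated. The endothelial list (5 genes, 2 fell) summed to 4.48 to 5.19, against 6.25 to 6.81 untreated. Adipocytes make fatty acids with the same enzymes. Of 6 adipocyte markers 4 were measured and 0 passed, and their sums overlapped, at 2.49 to 3.42 with AP20187 and 3.07 to 4.38 untreated. The cholangiocyte sums (3.63 to 5.72, against 3.77 to 6.39) and lymphocyte sums (3.21 to 4.90, against 4.06 to 7.32) overlapped too. Of 4 measured cholangiocyte markers Sox9 rose (1.06 ± 0.18, adjusted p = 0.00244) and 0 fell, and 0 of 4 lymphocyte markers passed. No marker was at 0.

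Of 37 other genes of the pathway, 31 were measured. In AP20187-treated liver 5 rose and 10 fell, against 13.7% of all probe sets higher and 20.4% lower. Their median was -0.20, against -0.13 over all. Chain synthesis, elongation and desaturation had 6 of 10 lower and 0 higher. These were the elongases Elovl1 (-0.90), Elovl2 (-1.42) and Elovl5 (-1.22), the desaturases Fads1 (-0.93) and Scd2 (-0.92), and Hsd17b12 (-1.27), which reduces the ketoacyl intermediate of elongation. Substrate and NADPH supply had 3 of 5 lower. These were Acss2 (-1.32), which makes cytosolic acetyl-CoA from acetate, and Pgd (-0.58) and Idh1 (-1.18), which yield NADPH. Aacs (1.65), which activates acetoacetate, rose. Among 8 upstream regulators Scap (-1.14), the escort of SREBP, fell and none rose. Glycerolipid assembly went the other way, with 4 of 8 higher and 0 lower. These were the acyltransferase Gpat4 (0.71), the phosphatidate phosphatases Lpin1 (1.46) and Lpin2 (1.16), and the lipid droplet protein Pnpla3 (1.30). The adjusted p-values of these 15 genes lay at or below 0.0193, that of Gpat4.

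The second experiment asks how the same genes respond to a high fat diet, and whether Alb::GC changes the response. In wildtype liver, HFD arrays were higher than LFD arrays for most of the group, and Scd1, Acly, Fasn, Thrsp and Me1 each rose in 1 probe set. A second Acly probe set, 1439445_x_at, fell. Of the 20 probe sets 5 rose and 1 fell, against 14.6% of all probe sets passing, 7.97% higher and 6.63% lower. The estimate was positive for 19 of 20, against 44.0% of all probe sets, and the median was 0.99, against -0.11 over all. Both HFD arrays lay above both LFD arrays in 16 of 20 probe sets (26.7% of all) and below them in 1 (36% of all). These calls rest on both HFD wildtype arrays. Without HFD wildtype replicate 1, 0 of 20 passed (86 of all probe sets did), and without replicate 2, 0 of 20 (47 of all). Fitted on the 4 wildtype arrays alone, 1 of 20 passed, and 957 of all 22626 probe sets did.

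RNA quality moved with diet, and its part in these results was not tested. The log2 difference between the 3′ and 5′ actin control probe sets was -0.44 to -0.33 in HFD Alb::GC, -0.71 to -0.62 in HFD wildtype, -0.16 to 0.18 in LFD Alb::GC and -0.03 to 0.21 in LFD wildtype arrays. For Gapdh it was -0.31 to -0.15 on HFD and 0.04 to 0.22 on LFD, so diets did not overlap by either gene. On HFD the actin values of the genotypes did not overlap either, and those of Gapdh did. In the first experiment the actin values were -0.04 to 0.15 with AP20187 and -0.18 to -0.02 untreated, and those of Gapdh -0.14 to 0.19 and -0.06 to -0.01. The adipocyte marker Fabp4 rose on HFD in wildtype by 1.88 ± 0.19, the only 1 of 4 measured adipocyte markers that passed. The summed ratio of the 4 was 3.27 to 3.83 in HFD Alb::GC, 4.31 to 4.91 in HFD wildtype, 2.44 to 3.63 in LFD Alb::GC and 2.98 to 3.62 in LFD wildtype. Of 6 stellate and fibroblast markers 2 also rose on HFD in wildtype, and 0 of 9 hepatocyte, 0 of 5 endothelial and 0 of 4 cholangiocyte markers passed. The hepatocyte sum was 8.29 to 8.88 in HFD wildtype, against 9.11 to 10.1 in LFD wildtype, the endothelial sum 6.07 to 6.36, against 3.98 to 4.48, and the cholangiocyte sum 1.81 to 2.37, against 3.28 to 4.12.

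**Figure D3:**
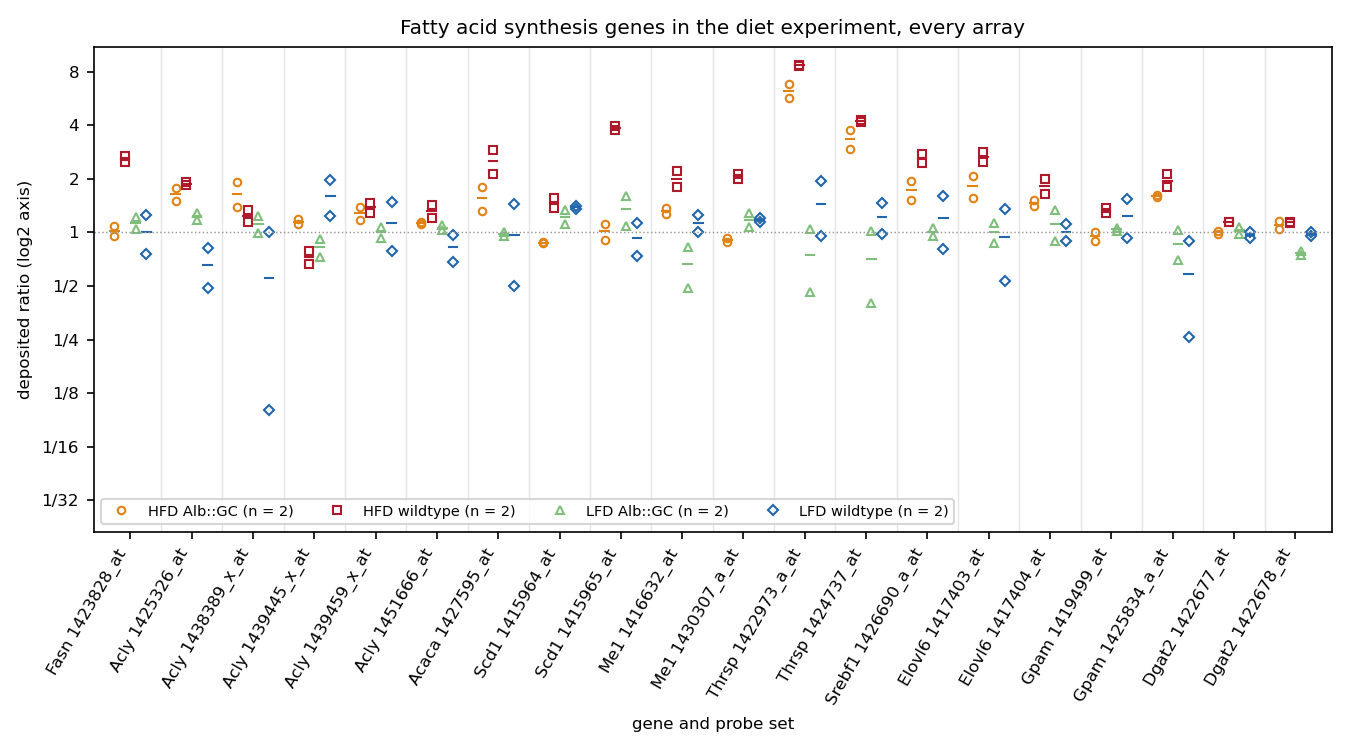
Deposited ratio of each of the 20 probe sets on a log2 axis in the diet experiment, with 1 point per array and short lines at the group means (n = 2 each). The HFD wildtype arrays (squares) stand highest for most probe sets, among them Fasn, Scd1 1415965_at and Me1 1430307_a_at. The HFD arrays of both genotypes stand above the LFD arrays for Thrsp, Elovl6 and some others.

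Thrsp 1422973_a_at had the largest HFD difference of the group in both genotypes, without passing in either. Its ratios were 5.68 and 6.84 in HFD Alb::GC, 8.65 and 8.74 in HFD wildtype, 1.04 and 0.46 in LFD Alb::GC, and 1.94 and 0.96 in LFD wildtype. The HFD difference was 3.08 ± 0.80 in Alb::GC (adjusted p = 0.0723) and 2.62 ± 0.80 in wildtype (0.0762). Both differences passed without the variance trend (adjusted p = 0.0267 in Alb::GC and 0.0236 in wildtype) and with the lowest 20% of probe sets left out (0.0276 and 0.023). Without LFD wildtype replicate 1 the Alb::GC difference passed too (0.0478). Over the 15 alternatives the adjusted p ranged from 0.0267 to 0.315 in Alb::GC and from 0.023 to 0.429 in wildtype. Probe set 1424737_at had 2.95 and 3.76 in HFD Alb::GC, 4.18 and 4.26 in HFD wildtype, 1.02 and 0.40 in LFD Alb::GC, and 1.47 and 0.98 in LFD wildtype. It rose with HFD by 2.29 ± 0.43 in Alb::GC (adjusted p = 0.0366) and by 1.77 ± 0.43 in wildtype (0.045). The Alb::GC call held in 8 of 15 alternatives and the wildtype call in 6 of 15. The Alb::GC call was lost without LFD Alb::GC replicate 2 or without any one of the 4 HFD arrays. The wildtype call was lost without either LFD wildtype array or any one of the 4 HFD arrays.

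Srebf1 had 1.52 and 1.95 in HFD Alb::GC, 2.45 and 2.76 in HFD wildtype, 1.06 and 0.95 in LFD Alb::GC, and 1.61 and 0.81 in LFD wildtype. In order of means the groups run HFD wildtype, HFD Alb::GC, LFD wildtype and LFD Alb::GC, and HFD Alb::GC overlapped LFD wildtype, as did LFD Alb::GC. The HFD difference was 0.75 ± 0.32 in Alb::GC and 1.15 ± 0.32 in wildtype (adjusted p = 0.059). Without LFD wildtype replicate 1 the wildtype difference was 1.62 and passed (adjusted p = 0.0258, range 0.0258 to 0.197).

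Fasn was high in HFD wildtype alone. Its ratios were 1.08 and 0.96 in HFD Alb::GC, 2.50 and 2.70 in HFD wildtype, 1.22 and 1.04 in LFD Alb::GC, and 1.26 and 0.76 in LFD wildtype. HFD Alb::GC, LFD Alb::GC and LFD wildtype arrays overlapped each other. The HFD difference in wildtype was 1.36 ± 0.24, a rise (adjusted p = 0.0205), and that in Alb::GC was -0.14 ± 0.24 (0.736). Acaca had 1.31 and 1.79 in HFD Alb::GC, 2.14 and 2.92 in HFD wildtype, 0.95 and 1.0 in LFD Alb::GC, and 0.50 and 1.44 in LFD wildtype. Its HFD differences were 0.63 ± 0.45 in Alb::GC and 1.49 ± 0.45 in wildtype (adjusted p = 0.075). Without LFD wildtype replicate 2 the wildtype difference of Acaca was 2.21 and passed (adjusted p = 0.0247, range 0.0247 to 0.244).

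In wildtype Acly again differed by probe set. Probe set 1425326_at had 1.51 and 1.78 in HFD Alb::GC, 1.85 and 1.91 in HFD wildtype, 1.28 and 1.18 in LFD Alb::GC, and 0.82 and 0.49 in LFD wildtype. It rose with HFD in wildtype by 1.49 ± 0.23 (adjusted p = 0.0162). Its partner with the same accession, 1451666_at, had a wildtype difference of 0.66 ± 0.20 (0.0712, or 0.0475 without LFD wildtype replicate 1), and 1439459_x_at one of 0.33 ± 0.28. The pair that stood apart with AP20187 disagreed with each other here too. Probe set 1439445_x_at had 0.79 and 0.66 in HFD wildtype, against 1.96 and 1.24 in LFD wildtype, and fell by 1.06 (SE 0.25, adjusted p = 0.0405), a call that held in 5 of 15 alternatives and was lost without any array but LFD wildtype replicate 2. Probe set 1438389_x_at, with 0.10 in LFD wildtype replicate 2, differed by 1.68 ± 0.82 (0.206). It passed without LFD wildtype replicate 1 (difference 3.10, adjusted p = 0.0184, range 0.0184 to 0.523). In Alb::GC the HFD differences of all 5 Acly probe sets were positive, from 0.08 to 0.54, and none passed. That of 1439445_x_at was 0.46 ± 0.25.

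Me1 had 2 probe sets with unlike patterns. Probe set 1430307_a_at had 0.93 and 0.88 in HFD Alb::GC, 2.0 and 2.13 in HFD wildtype, 1.29 and 1.07 in LFD Alb::GC, and 1.20 and 1.14 in LFD wildtype. It rose with HFD in wildtype by 0.79 ± 0.14 (adjusted p = 0.0194), and its difference in Alb::GC was -0.36 ± 0.14 (0.15). The wildtype call was lost without any one of the 4 wildtype arrays. Probe set 1416632_at had 1.37 and 1.27 in HFD Alb::GC, 2.21 and 1.79 in HFD wildtype, 0.49 and 0.83 in LFD Alb::GC, and 1.26 and 1.0 in LFD wildtype. Its differences were 0.99 ± 0.26 in Alb::GC (0.0726) and 0.80 ± 0.26 in wildtype (0.0872, or 0.0498 without LFD Alb::GC replicate 1).

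The 2 Scd1 probe sets gave different values in wildtype. Probe set 1415965_at had 0.91 and 1.12 in HFD Alb::GC, 3.98 and 3.74 in HFD wildtype, 1.60 and 1.09 in LFD Alb::GC, and 0.74 and 1.13 in LFD wildtype. It rose with HFD in wildtype by 2.02 ± 0.27 (adjusted p = 0.0106), or 4.05-fold, and had a difference of -0.37 ± 0.27 in Alb::GC (0.399). Probe set 1415964_at had 0.87 and 0.88 in HFD Alb::GC, 1.37 and 1.56 in HFD wildtype, 1.33 and 1.12 in LFD Alb::GC, and 1.41 and 1.35 in LFD wildtype. Its differences were -0.46 ± 0.14 in Alb::GC (0.0973) and 0.08 ± 0.14 in wildtype. In both probe sets the lowest Alb::GC array was an HFD one.

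Elovl6 was higher on HFD in every array of both genotypes without passing in either. Probe set 1417403_at had 1.56 and 2.07 in HFD Alb::GC, 2.50 and 2.82 in HFD wildtype, 0.87 and 1.13 in LFD Alb::GC, and 1.35 and 0.53 in LFD wildtype, with a wildtype difference of 1.59 ± 0.41 (adjusted p = 0.0502). It passed without LFD wildtype replicate 1 (2.22, adjusted p = 0.0221, range 0.0221 to 0.17). Probe set 1417404_at had a wildtype difference of 0.84 ± 0.23 (0.0562) and passed without either LFD Alb::GC array. For Gpam, 1425834_a_at had 1.59 and 1.62 in HFD Alb::GC, 1.79 and 2.12 in HFD wildtype, 1.03 and 0.70 in LFD Alb::GC, and 0.26 and 0.90 in LFD wildtype. Its wildtype difference was 1.88 ± 0.50 (0.0538), and without LFD wildtype replicate 2 it was 2.69 and passed (adjusted p = 0.0192, range 0.0192 to 0.181). That of 1419499_at was 0.14 ± 0.23. Dgat2 ratios lay between 0.75 and 1.16 in all 8 arrays of both probe sets, and the wildtype differences were 0.24 ± 0.13 and 0.21 ± 0.14. In Alb::GC 1422677_at differed by -0.03 ± 0.13 and 1422678_at by 0.49 ± 0.14 (adjusted p = 0.089). The latter had 1.05 and 1.16 in HFD Alb::GC, against 0.79 and 0.75 in LFD Alb::GC.

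**Figure D4:**
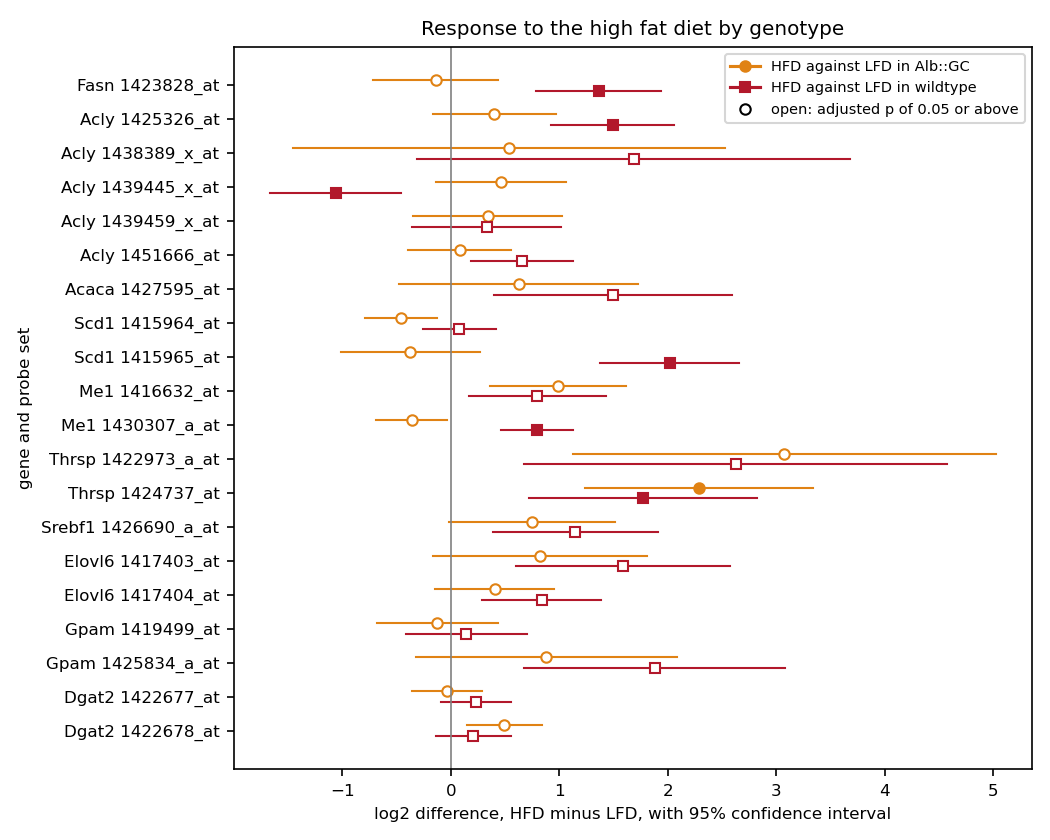
Log2 difference of each probe set between HFD and LFD with its 95% confidence interval, in Alb::GC (circles) and in wildtype (squares). Filled points passed an adjusted p of 0.05. Fasn, both Scd1 probe sets, Me1 1430307_a_at, Gpam 1419499_at and Dgat2 1422677_at lie below 0 in Alb::GC and above 0 in wildtype. None of these passed in Alb::GC. Thrsp lies above 0 in both genotypes.

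In Alb::GC liver, 1 of 20 probe sets rose with HFD, Thrsp 1424737_at, and 0 fell, against 6.77% of all probe sets passing, 4.64% higher and 2.13% lower. Both HFD arrays lay above both LFD arrays in 14 of 20 (29.1% of all) and below in 3 (30.9% of all), and the median was 0.43, against -0.02 over all. Averaged over genotypes, 11 of 20 probe sets in 9 genes rose with HFD and 0 fell, against 27.5% of all probe sets passing, 13.5% higher and 14% lower. An averaged rise need not be shared by both genotypes. Fasn and Scd1 1415965_at, both counted here, had differences of -0.14 ± 0.24 and -0.37 ± 0.27 in Alb::GC, neither past the threshold. Over both genotypes their HFD and LFD arrays overlapped. Acaca was the gene without a call (1.06 ± 0.32, adjusted p = 0.0537). The largest averaged rises were those of Thrsp (2.85 ± 0.57 and 2.03 ± 0.31), Gpam 1425834_a_at (1.38 ± 0.35) and Elovl6 1417403_at (1.21 ± 0.29). The smallest was Dgat2 1422678_at (0.35 ± 0.10, adjusted p = 0.0462). The count of 11 depended on single arrays. It fell when any 1 array other than LFD wildtype replicate 1 was left out. The fall was largest without LFD Alb::GC replicate 2 or any one of the 4 HFD arrays. The number of all probe sets passing fell in each of these fits too, and each leaves a lone array in its group. Cell type markers moved in the same averaged comparison, and their part in the result was not tested. Of 9 measured hepatocyte markers 3 fell, which were Alb (-0.44), Ttr (-0.61) and Apoa1 (-0.45). Of 4 cholangiocyte markers Sox9 (-0.74) and Epcam (-0.89) fell, and of 6 stellate and fibroblast markers Col1a1 (-0.59) fell. The adipocyte marker Fabp4 (1.16, 1 of 4), the macrophage marker Cd5l (0.72, 1 of 7), the endothelial marker Oit3 (0.78, 1 of 5) and the lymphocyte marker Ptprc (0.60, 1 of 4) rose.

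Between genotypes, the HFD arrays of Alb::GC were lower than those of wildtype in most of the group, but no probe set passed. On HFD limma called 0 of 20, against 0.133% of all probe sets, and 5 of 20 had an unadjusted p below 0.05, against 11.2% of all. The estimate was negative in 18 of 20, against 47.9% of all, with a median of -0.40, against 0.02 over all. Both Alb::GC arrays lay below both wildtype arrays in 16 of 20 (21.9% of all) and above in 2 (24.6% of all), which were Acly 1438389_x_at and 1439445_x_at. The largest differences were -1.88 ± 0.27 for Scd1 1415965_at (adjusted p = 0.0725), -1.31 ± 0.24 for Fasn (0.115) and -1.15 ± 0.14 for Me1 1430307_a_at (0.0601). Scd1 1415964_at differed by -0.71 ± 0.14 (0.132). These contrasts share the HFD wildtype arrays with the diet comparison in wildtype. RNA quality and marker sums also differed between these HFD groups, and their part was not tested. The actin difference was -0.44 to -0.33 in Alb::GC and -0.71 to -0.62 in wildtype. The cholangiocyte sum was 3.16 to 3.55 in Alb::GC, against 1.81 to 2.37 in wildtype, and the adipocyte sum 3.27 to 3.83, against 4.31 to 4.91. Gapdh and the sums of the other marker lists overlapped.

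On LFD limma called 0 of 20 between Alb::GC and wildtype, 0% of all, with 3 of 20 at an unadjusted p below 0.05 (10.3% of all). Both Alb::GC arrays lay above both wildtype arrays in 2 probe sets (15.5% of all) and below in 4 (23.3% of all). Averaged over diets limma again called 0 of 20 and 0% of all, with 5 of 20 at an unadjusted p below 0.05 (11.5% of all).

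The test of whether the diet response differs between genotypes called 0 of 20, and 0% of all, with 6 of 20 at an unadjusted p below 0.05 (11.1% of all). Its largest terms, Alb::GC minus wildtype, were -2.39 ± 0.38 for Scd1 1415965_at (adjusted p = 0.141), 1.52 ± 0.35 for Acly 1439445_x_at (0.223), -1.50 ± 0.34 for Fasn (0.22) and -1.15 ± 0.19 for Me1 1430307_a_at (0.142). The interval of the Fasn term was -2.32 to -0.69 and that of the Scd1 term -3.30 to -1.48, before adjustment over all probe sets. For Thrsp the terms were 0.45 ± 1.14 and 0.51 ± 0.61, with intervals from -2.30 to 3.20 and from -0.97 to 2.0. A different response of the group by genotype was not shown at this number of arrays.

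Among the 31 other genes of the pathway, 4 rose and 4 fell with HFD in Alb::GC, against 4.64% of all probe sets higher and 2.13% lower. In wildtype 6 rose and 2 fell, against 7.97% of all higher and 6.63% lower. Lpin1 rose most, by 2.58 ± 0.16 in Alb::GC and 3.39 ± 0.16 in wildtype. Its ratios were 6.08 and 5.72 in HFD Alb::GC, 2.53 and 2.78 in HFD wildtype, 0.91 and 0.98 in LFD Alb::GC, and 0.24 and 0.18 in LFD wildtype. Aacs rose by 1.47 in Alb::GC and 1.06 in wildtype, and Idh1 by 0.86 and 0.77 in the same order. Elovl3, an elongase of very long chains, had differences of -1.98 in Alb::GC and -3.30 in wildtype and fell in both. In wildtype Pklr (0.91), the pyruvate kinase of liver, the desaturase Fads2 (0.91) and the acyltransferase Mogat1 (1.91) also rose and Scap fell (-1.25). In Alb::GC Elovl2 (0.75) also rose, and Acacb (-3.11), the carboxylase at mitochondria, Hsd17b12 (-0.68) and the acyltransferase Agpat1 (-0.75) fell. No upstream regulator passed in Alb::GC, where Insig2 had -0.99 ± 0.22 and Usf1 -0.74 ± 0.21. Averaged over genotypes 10 rose and 7 fell, against 13.5% of all probe sets higher and 14% lower. Those not already named were the transcription factor Mlxipl (0.55), the coactivator Ppargc1b (1.16) and Gpat4 (0.80), which rose, and the SREBP retention protein Insig2 (-0.85) and Elovl1 (-0.45), which fell.

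**Figure D5:**
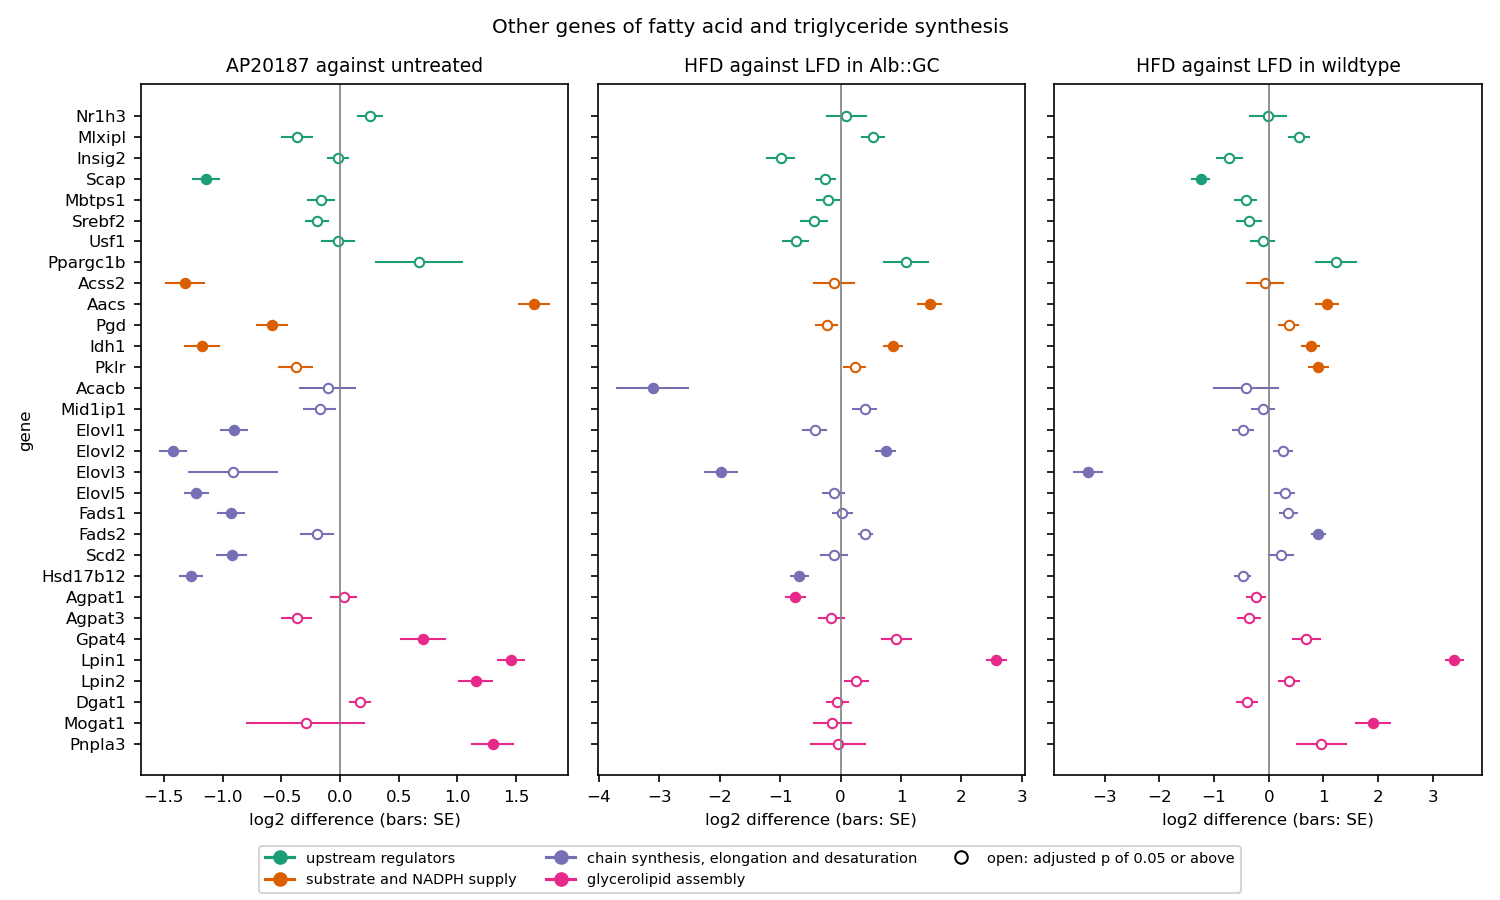
Log2 difference of 31 other genes of fatty acid and triglyceride synthesis with the standard error, in 3 comparisons: AP20187-treated minus untreated, HFD minus LFD in Alb::GC and HFD minus LFD in wildtype. Colours give the role and filled points passed an adjusted p of 0.05. Lpin1 and Aacs lie above 0 in all 3 panels, and the 10 genes of chain synthesis lie below 0 with AP20187, 6 of them past the threshold.

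No gene of this list passed between genotypes or in the interaction (0 of 31 in each). At an unadjusted p below 0.05 there were 11 of 31 on HFD (11.2% of all probe sets), 3 on LFD (10.3%), 10 averaged over diets (11.5%) and 8 in the interaction (11.1%). The 2 genes of each role with the smallest p-values are given as log2 differences, Alb::GC minus wildtype. On HFD they were Scap (0.72 ± 0.16) and Usf1 (-0.74 ± 0.21) among regulators, and Pgd (-0.55 ± 0.17) and Pklr (-0.45 ± 0.17) in supply. In chain synthesis they were Elovl3 (1.29 ± 0.26) and Acacb (-2.77 ± 0.59), and in glycerolipid assembly Mogat1 (-2.69 ± 0.31, adjusted p = 0.0559) and Lpin1 (1.14 ± 0.16, 0.0719). On LFD they were Srebf2 (0.52 ± 0.22), Mlxipl (0.39 ± 0.18), Pklr (0.22 ± 0.17), Aacs (-0.19 ± 0.19), Mid1ip1 (-0.60 ± 0.19), Hsd17b12 (-0.24 ± 0.14), Lpin1 (1.95 ± 0.16, adjusted p = 0.0818) and Agpat1 (0.52 ± 0.16). Averaged over diets they were Srebf2 (0.48 ± 0.16), Mlxipl (0.38 ± 0.13), Pgd (-0.25 ± 0.12), Pklr (-0.12 ± 0.12), Hsd17b12 (-0.34 ± 0.10), Acacb (-1.42 ± 0.42), Lpin1 (1.54 ± 0.11, 0.0717) and Mogat1 (-1.67 ± 0.22). In the interaction they were Scap (1.0 ± 0.23), Usf1 (-0.64 ± 0.30), Pklr (-0.67 ± 0.24), Pgd (-0.59 ± 0.24), Elovl3 (1.32 ± 0.37), Acacb (-2.70 ± 0.83), Mogat1 (-2.04 ± 0.43) and Lpin1 (-0.81 ± 0.22).

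Across all probe sets outside the group, the 5 genes whose log2 ratios followed Fasn most closely were ranked by the lower of Pearson's r over the 8 arrays of each experiment. The arrays of an experiment share its groups, so r describes group differences too, and no p is given. For Pgd, by a probe set other than the one used in the pathway list, r was 0.984 in the TTR::Fv2E-PERK experiment and 0.988 in the diet experiment. For Gclc the values were 0.988 and 0.961, for Tkt 0.961 and 0.955, for Lgals1 0.987 and 0.951, and for Gas2 0.942 and 0.963, in the same order. Pgd had ratios of 0.60 to 0.68 with AP20187 and 0.95 to 1.21 untreated. In the diet experiment it had 1.03 and 0.97 in HFD Alb::GC, 2.42 and 2.54 in HFD wildtype, 1.35 and 1.10 in LFD Alb::GC, and 1.33 and 0.92 in LFD wildtype. Lgals1 had 0.81 to 1.04 with AP20187 and 2.63 to 3.85 untreated, and 9.55 and 9.23 in HFD wildtype, against 1.02 and 0.84 in LFD wildtype.

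Set side by side, the experiments, which share no arrays, gave Thrsp as higher both with AP20187 and on HFD. On HFD both Thrsp probe sets rose averaged over genotypes, but within a genotype only 1424737_at passed. Its call held in 8 of 15 alternatives in Alb::GC and in 6 of 15 in wildtype. Fasn, Acly 1425326_at and Scd1 1415965_at fell with AP20187 and rose on HFD in wildtype, where their calls were lost without either HFD wildtype array. Other probe sets of Scd1 and Acly did not repeat this. Scd1 1415964_at fell with AP20187 and differed by 0.08 ± 0.14 on HFD in wildtype. Acly 1439459_x_at and 1451666_at fell with AP20187 and did not pass on HFD in wildtype. Dgat2 1422677_at rose with AP20187 and differed by 0.24 ± 0.13 on HFD in wildtype. No test joined the 2 experiments.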

How the data were processed

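Liver RNA of 16 mouse samples was measured on Affymetrix arrays after labelling as biotinylated cRNA, per the labels' protocols. The deposited value is a ratio per probe set and array, to 2 decimals. The unit was read from the values, and no source used here gives the scanner software, summary method or denominator. The ratio carries no detection call, and the number of arrays limits the precision. Replicates of a group correlated at 0.442 to 0.658 (log2), and 1.44% to 2.46% of their values were equal, so none was a duplicate.

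From these, log2(ratio + 0.05) was fitted with limma 3.58.1 in R 4.3.3 (eBayes with a trend on the mean, two-sided, Benjamini-Hochberg over 22626 probe sets, threshold 0.05), after 64 control probe sets were left out. The TTR::Fv2E-PERK fit had 6 residual degrees of freedom plus 2.06 from the prior, and the diet fit, with 1 spread for its 4 groups, had 4 plus 2.30. The R package data.table (version 1.17.8) read the files, and plots used matplotlib 3.10.9 and pandas 2.3.3 in Python 3.11.15. Symbols came from the platform annotation, in which 20380 probe sets had 1 symbol, 1555 none and 691 several. Every probe set of the 10 genes is named. Other pathway genes, each represented by its probe set of smallest residual spread, are named where called, or else as the 2 of a role with the smallest p-value. The genes and lists were chosen with earlier results of these data known. The fits were tested on simulated data. Alternatives changed the offset, normalization, variance trend, low-value filter and arrays used.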

Additional observations from a re-analysis of the deposited data

Results flagged for a closer look

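Among the 20 probe sets, each group of 4 arrays in the TTR::Fv2E-PERK experiment was searched for an array far from the other 3, by Dixon's test at the 95% level. Of 40 groups 3 held one, where chance alone flags about 5% of groups. In Fasn, AP20187-treated replicate 3 had 1.23 and the other treated arrays 0.99 to 1.0, all below the lowest untreated array. In Elovl6 1417403_at, AP20187-treated replicate 4 had 0.67, below 1.02 to 1.06 in the other treated arrays. In Dgat2 1422678_at, untreated replicate 4 had 1.03, above 0.86 to 0.88 in the other untreated arrays and below the lowest treated array, 1.16.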

How the results depend on the processing

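With AP20187, 11 to 13 of the 20 probe sets passed over 14 alternatives, the same range as with 1 array left out, and 12 passed in the main setting. Of 279 single values under alternatives, 271 kept their side of the threshold and 0 reversed a call. The median of all probe sets there was -0.13 as deposited, -0.06 after quantile normalization and -0.08 after median centring, and none of the 12 calls changed direction under either. All 12 held after median centring and 11 after quantile normalization, where Scd1 1415965_at lost its call (-0.77, adjusted p = 0.097). With HFD in wildtype the count of 6 (5 higher, 1 lower) became 10 with median centring (9 higher, 1 lower), 1 with the 2 groups alone, and 0 to 7 with 1 array left out, and quantile normalization gave 4, all higher. With HFD in Alb::GC the count of 1 became 0 with quantile normalization, 2 without the variance trend and 2 with the lowest 20% of probe sets left out. With the 2 groups alone it was 0, and 0 of all probe sets passed. It also changed when single arrays were left out. Averaged over genotypes the count of 11 became 5 with quantile normalization, where 5424 of all 22626 probe sets passed. That count of 11 also fell when any 1 array other than LFD wildtype replicate 1 was left out. In the wildtype diet comparison 250 of 300 single values kept their side, 32 lost a call and 18 gained one. The 3 genotype comparisons and the interaction had 0 calls of 20 in every alternative. Over all probe sets Alb::GC against wildtype on HFD had 30 calls, and 0 to 45 under alternatives, with 0 after quantile normalization. Representing the other pathway genes by their probe set of highest mean gave 15 calls with AP20187, 10 with HFD in wildtype and 9 in Alb::GC. Such a mean of ratios holds no absolute level and includes the group differences, and the low-value filter uses one too. Acly 1439445_x_at fell under the low-value filter in the TTR::Fv2E-PERK experiment and has no value there. The cause of these changes was not tested. No paired analysis was possible because the labels give no replicate numbers shared between groups. With 2 arrays a group in the diet experiment, the spread rests on 4 residual degrees of freedom shared by all groups, and a left-out array leaves a lone array that is assumed to vary like the other groups.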
